A study of Drosophila melanogaster with 3 samples.

Results

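Intergenic Stripe peaks are the binding sites of the transcription factor Stripe (gene sr, FBgn0003499) whose summits lie outside every annotated gene body and more than 500 bp from any TSS, the transcription start site, of a gene that codes for protein. Of the 4041 peaks of the authors' conservative joint list on the arms X, 2L, 2R, 3L and 3R and chromosome 4, 525 met this rule (12.99%). Transposable elements were not counted as genes. The other peaks fell into 1690 deep intronic peaks (in a gene body, outside exons and over 500 bp from a TSS), 1526 peaks within 500 bp of a TSS and 300 exonic peaks away from a TSS. The peaks come from chromatin immunoprecipitation and sequencing (ChIP-seq) of whole Drosophila melanogaster embryos of 8 to 24 hours, in 3 libraries labelled as biological replicates of 1 group. The embryos were transgenic for an sr-eGFP fusion. The labels' description says that anti-GFP antibody was used, although sr is what the antibody entry reads. The labels do not say which promoter drives the fusion or whether native sr is intact, and untagged embryos were not analysed here. Chromatin was sonicated to between 200 and 800 bp, and 1 control file was common to the libraries. Since whole embryos were used, sites bound in a few cells and sites bound weakly in many cannot be told apart. The number of reads per library is unknown, and the thresholded lists of replicates 1, 2 and 3 held 2751, 1678 and 3008 peaks on the arms. All coordinates are dm6.

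Stripe is an EGR-type zinc finger protein, related to the vertebrate early growth response factors, and it directs the formation of tendon cells, the epidermal cells to which muscles attach. Zinc fingers of this family read a short GC-rich sequence, whose core is GTGGGCG or GTGGGTG. Sequence between genes can hold enhancers, which act on promoters at a distance, so a peak there does not name its target gene. A member is therefore called here by the gene of its nearest protein-coding TSS, as an address only.

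The sequences of 6 strong members show what lay under summits with and without the core. Each is 201 bases of the + strand centred on the summit, taken from RefSeq's Release 6 assembly, which has the coordinates of dm6. Capitals mark the core, read on either strand, so that GTGGGCG also appears as its complement CGCCCAC and the form GTGGGTG as CACCCAC. The member beside rgn (chr3L:21380241-21380441) held 3 cores. The member beside elB, a zinc finger gene of tracheal development (chr2L:14410410-14410610), and that beside CG5910 (chr3L:20441165-20441365) held 1 each. The member upstream of sr itself (chr3R:18089548-18089748) held 3. The members beside sp3 (chr3R:21520262-21520462) and jp, the junctophilin gene (chr2L:9567396-9567596), held none.
rgn: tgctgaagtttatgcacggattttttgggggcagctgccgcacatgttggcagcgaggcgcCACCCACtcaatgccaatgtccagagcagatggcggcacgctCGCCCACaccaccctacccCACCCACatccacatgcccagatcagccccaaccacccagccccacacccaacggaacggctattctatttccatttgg
elB: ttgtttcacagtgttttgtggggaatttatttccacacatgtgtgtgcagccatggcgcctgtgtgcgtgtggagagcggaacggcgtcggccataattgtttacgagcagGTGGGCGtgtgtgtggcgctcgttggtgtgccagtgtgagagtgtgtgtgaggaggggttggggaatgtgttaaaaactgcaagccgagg
CG5910: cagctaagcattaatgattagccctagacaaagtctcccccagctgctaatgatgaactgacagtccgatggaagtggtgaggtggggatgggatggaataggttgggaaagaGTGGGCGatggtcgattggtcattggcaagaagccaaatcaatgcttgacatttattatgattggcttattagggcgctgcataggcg
sr: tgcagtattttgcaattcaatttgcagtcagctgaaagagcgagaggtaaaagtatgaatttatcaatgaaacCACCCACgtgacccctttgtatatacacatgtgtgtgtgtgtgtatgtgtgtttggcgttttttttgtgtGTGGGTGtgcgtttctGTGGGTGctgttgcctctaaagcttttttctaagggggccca
sp3: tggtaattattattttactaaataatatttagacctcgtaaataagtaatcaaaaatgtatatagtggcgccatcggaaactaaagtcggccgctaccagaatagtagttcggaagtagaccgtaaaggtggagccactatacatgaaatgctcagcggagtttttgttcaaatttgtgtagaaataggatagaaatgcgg
jp: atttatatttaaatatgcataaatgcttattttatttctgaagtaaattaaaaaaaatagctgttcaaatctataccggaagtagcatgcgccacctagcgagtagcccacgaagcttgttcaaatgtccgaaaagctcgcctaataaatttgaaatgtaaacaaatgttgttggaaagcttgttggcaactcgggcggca

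The strongest member lay 566 bp 5′ of sp3 and had a signal of 643 in the joint list. In the libraries' own ranked lists its signal was 203, 184 and 266 in replicates 1, 2 and 3. Signal is the authors' value per peak with no stated unit, so the values of different lists have no common scale. Over members with a ranked peak the median signal was 43.7, 32.1 and 44.96 in replicates 1, 2 and 3, and a mean ± SD over libraries describes the spread of these values only. The next members lay 11915 bp from the TSS of CG13323 (joint signal 640, library signals 217, 157 and 260) and 2160 bp 5′ of rgn (joint signal 629, library signals 234, 165 and 226). The member 10529 bp from CG11629, with tsh, a zinc finger gene of the trunk epidermis, as the nearest protein-coding gene on its other side, had a joint signal of 553 and library signals of 183, 151 and 197. The member 746 bp 5′ of jp had a joint signal of 532 and library signals of 162, 168 and 206. The member 3165 bp 5′ of tara had a joint signal of 508 and library signals of 142, 172 and 189. The member 5725 bp 5′ of eEF1gamma, which encodes a subunit of translation elongation factor 1, had a joint signal of 466 and library signals of 111, 104 and 243. The summit of this last member lay 115 bp from the TSS of the non-coding gene lncRNA:CR31044.

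Of these 7 strongest members, 6 lacked the core, the exception being rgn. Of the next 8, the members beside elB (joint signal 449), CG13204 (437), CG5910 (435), MESR6 (432), sr (424) and CG33798 (417) held at least 1 core, and those beside CG33299 (420) and Ids, the iduronate sulfatase gene (396), held none. The cut at 7 was not set in advance. The core was in 7 of the 15 strongest members, in 26 of the strongest 50 and in 210 of all 525. All 15 had a thresholded summit in each of the 3 libraries. In the list as a whole the strongest members were not the strongest peaks, since sp3 ranked 29th of 4041 by signal.

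**Figure D1:**
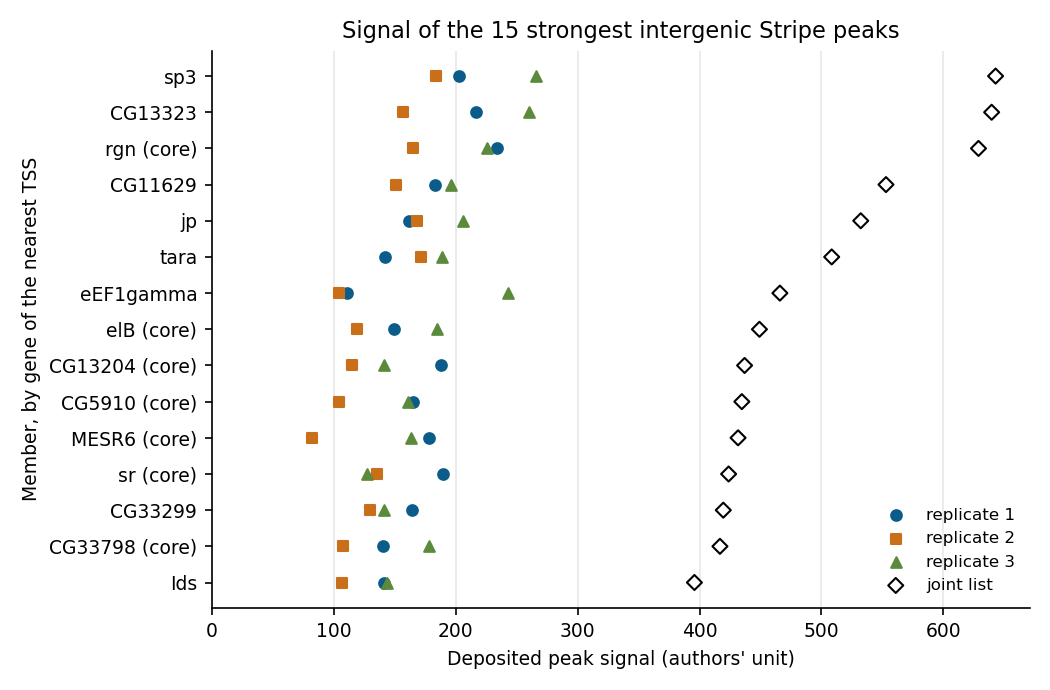
Deposited peak signal (horizontal axis, the authors' unit) of the 15 strongest intergenic members, named by the gene of the nearest TSS, with "core" where GTGGGCG or GTGGGTG lay within 100 bp of the summit. Filled symbols are the ranked lists of the 3 libraries and open diamonds the joint list, whose scale is its own. Of these 15 members 7 hold the core, as do 210 of all 525 members.

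Intergenic peaks were about as strong as the rest of the list. Their median joint signal was 114, with quartiles of 82.1 and 172 and a range of 6.85 to 643, against a median of 115 for the other 3516 peaks. Within each library's own thresholded list the median signal percentile of intergenic peaks minus that of the rest was −1.47, 1.22 and −2.09 points in replicates 1, 2 and 3, a difference smaller than the spread between libraries (mean −0.78 ± 1.76, SD, n = 3; exact sign-flip permutation p = 0.5, two-sided, where the smallest possible p is 0.25). Intergenic peaks made up 13.7%, 13.3% and 12.7% of the libraries' own lists.

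A thresholded summit lay within 100 bp of 314 members in replicate 1 (59.8%), of 202 in replicate 2 (38.5%) and of 311 in replicate 3 (59.2%). All 3 libraries had one at 161 members, 30.7% (95% Wilson interval 26.9 to 34.7), and the same held for 28.7% of the whole list. In replicate 2, 37.0% of the other peaks had one, against the 38.5% of members. Members thus had such summits about as often as other peaks. At 115 members 2 libraries had one, at 114 members 1 library, and at 135 members (25.7%) none. In the longer ranked lists, which hold peaks below the threshold too, 447 members had a summit in all 3 libraries. The joint ranked list that holds every conservative peak carries the coordinates of a pair of source peaks for each entry, and the first was found among the ranked peaks of replicate 1 for 68.7% of entries and the second among those of replicate 3 for 67.6%, while no entry matched replicate 2. Summits of replicates 1 and 3 can therefore be source peaks of the list itself, and their presence is not an independent finding of a member. The labels do not state which libraries set the conservative threshold, and the bearing of this on the lower count of replicate 2 was not tested.

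The core was far more frequent under intergenic summits than beside them. It lay within 100 bp of the summit in 210 of 525 members, 40% (95% Wilson interval 35.9 to 44.2), against 38 of the windows of the same width centred 1000 bp to the right (7.24%). In 194 members it was found only at the summit and in 22 only in the flank (exact two-sided sign test, adjusted over 14 motifs, p = 2.01e-34). Of all 184364 windows of 201 bases that tile the sequence where a member could lie, 6.27% held the core. In the libraries' own thresholded lists the core was at 42.3%, 43.3% and 37.2% of intergenic summits (mean 40.9% ± 3.29, SD, n = 3), against 5.05%, 6.25% and 6.54% of their flanks. These lists overlap, so the shares rest in part on the same sites.

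The base composition of the windows moved with the core. Median GC content was 47.3% at member summits, 41.3% in the flanks and 40.8% in the tiles. Among windows with a GC content of 45 to 50%, 58 of 115 members held the core (50.4%), against 9.25% of tiles, and with 40 to 45% it was 34.8% of 92 members against 6.38% of tiles. In windows under 40% GC, 17 of 119 members held it (14.3%), against 2.92% of tiles. At 50 to 55% GC it was 51.2% of 125 members against 13.6% of tiles, and over 55% it was 52.7% of 74 members against 11.9% of tiles. The share was higher in members than in tiles in all 5 ranges of composition.

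Among the classes of the same list, the share of summits with the core was lowest at TSSs and highest in exonic peaks, with intergenic and deep intronic peaks between them. The core was at 40% of intergenic summits and at 44.3% of deep intronic ones (748 of 1690), a difference of −4.26 percentage points (95% interval −9.07 to 0.55; Fisher's exact test of the 2 shares, two-sided, adjusted p = 0.0867), which did not pass the threshold of 0.05. The interval includes a share up to 9.07 points lower, so the test does not show that the classes are alike. In the libraries' own lists the difference was −5.85, −7.49 and −4.68 points, the same sign in each library (mean −6.01 ± 1.41, SD, n = 3; exact sign-flip permutation p = 0.25, the smallest that 3 libraries allow). Against peaks within 500 bp of a TSS, of which 407 of 1526 held the core (26.7%), the intergenic share was 13.3 points higher (95% interval 8.59 to 18.1), an odds ratio of 1.83 that passed the threshold (adjusted p = 3.32e-08, Fisher's exact test). It was higher in each library's own list as well, by 14.4, 8.39 and 9.83 points (mean 10.9 ± 3.12, SD, n = 3; exact sign-flip permutation p = 0.25, again the smallest possible). The core is a property of the sequence, and the libraries' lists overlap, with 161 members thresholded in all 3. In both comparisons the library differences therefore reuse many of the same windows and are not independent replications. Flanking windows differed less between classes, with the core in 7.24% beside intergenic peaks, 8.76% beside deep intronic peaks and 9.11% beside peaks at TSSs. Of the 300 exonic peaks 158 held the core (52.7%, 95% Wilson interval 47.0 to 58.2), with 7% of their flanks, and their difference from intergenic peaks was not tested.

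**Figure D2:**
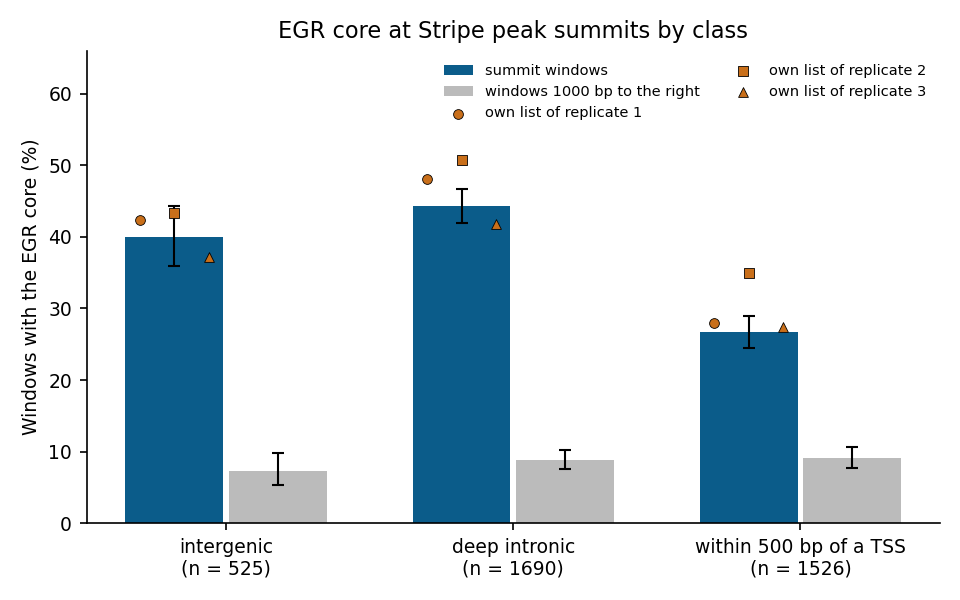
Share of windows of 201 bases that hold the EGR core (vertical axis, percent) at summits and 1000 bp to the right, for intergenic peaks, deep intronic peaks and peaks within 500 bp of a TSS of the conservative list. Bars carry Wilson 95% intervals and symbols give the summit share in the thresholded list of each replicate; of these 3 classes, intergenic summits reach 40%, deep intronic summits 44.3% and summits at TSSs 26.7%. Exonic peaks are not drawn.

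Where the core was present, it lay close to the summit. In the 210 members with a core the nearest was a median of 18 bp away, 177 of them (84.3%) had one within 50 bp, and 112 (53.3%) within 20 bp. The members held 292 cores in all, of which 153 read GTGGGCG and 139 GTGGGTG, with 157 on the + strand and 135 on the − strand. A single core was found in 149 members, 2 in 45, and 3 or more in 16. The most was 4, in 5 members, none of them strong. The highest of these in signal were the members beside soti (joint signal 103, library signals 26.2, 24.96 and 49.1), sdt, a cell polarity gene (101, with 33.0, 36.0 and 24.5), and CG43245 (93.0, with 46.7, 22.6 and 32.0). Median joint signal was 107 in the 315 members without a core, 130 with 1 core, 114 with 2 and 114 with 3 or more, so that among members with a core the median was highest with 1.

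**Figure D3:**
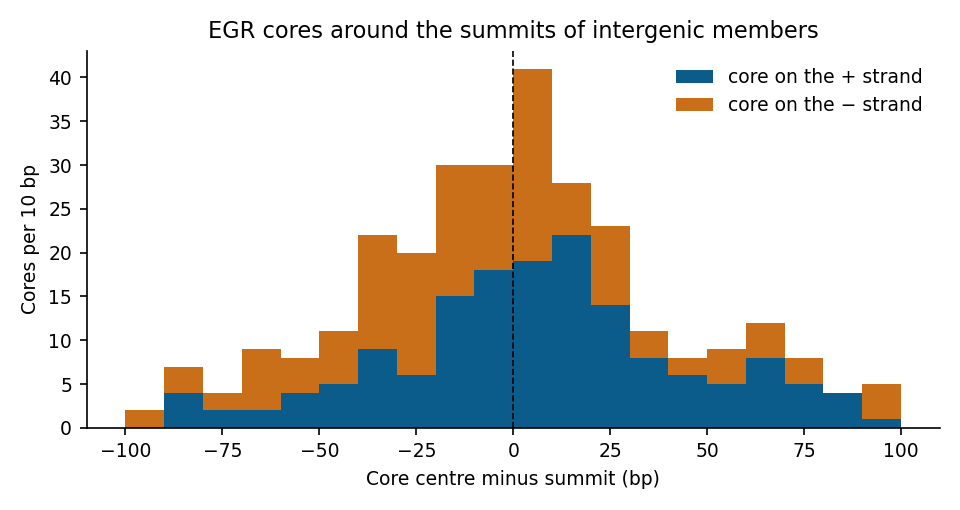
Number of EGR cores per 10 bp (vertical axis) by the distance of the core's centre from the summit in bp (horizontal axis), stacked by strand, for the 210 intergenic members with a core. Cores pile up at the summit: the nearest one lay a median of 18 bp away.

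The share of members with the core was lower in the weaker part of the list. Over 5 groups of 105 members each, from the lowest joint signal to the highest, it was 33.3%, 28.6%, 45.7%, 43.8% and 48.6%. The Wilson intervals of the lowest group (25.05 to 42.8%) and the highest (39.2 to 58.0%) overlapped, and this split was chosen after the values were seen, so it carries no test. Deep intronic peaks held the core in 33.7% of their lowest 20% by signal and 56.5% of their highest 20%, and peaks at TSSs in 16.99% and 38.7%. Intergenic members with a thresholded summit in all 3 libraries held the core in 48.4% of cases, those with 2 libraries in 43.5%, with 1 library in 30.7% and with none in 34.8%. Signal moved with the libraries, since a replicate 2 summit was found at 1.90% of the lowest group, 3.81%, 21.9% and 71.4% of the next ones and 93.3% of the highest. It also moved with the deposited peak width. The list's most frequent width, 296 bp, was that of 92.4% of the lowest group and 1.90% of the highest. Distance from the TSS showed no such order, with the core in 41.2% of members at 501 to 1000 bp, 36.4% at 1001 to 2000 bp, 44.96% at 2001 to 5000 bp, 39.4% at 5001 to 10000 bp and 36.6% beyond.

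**Figure D4:**
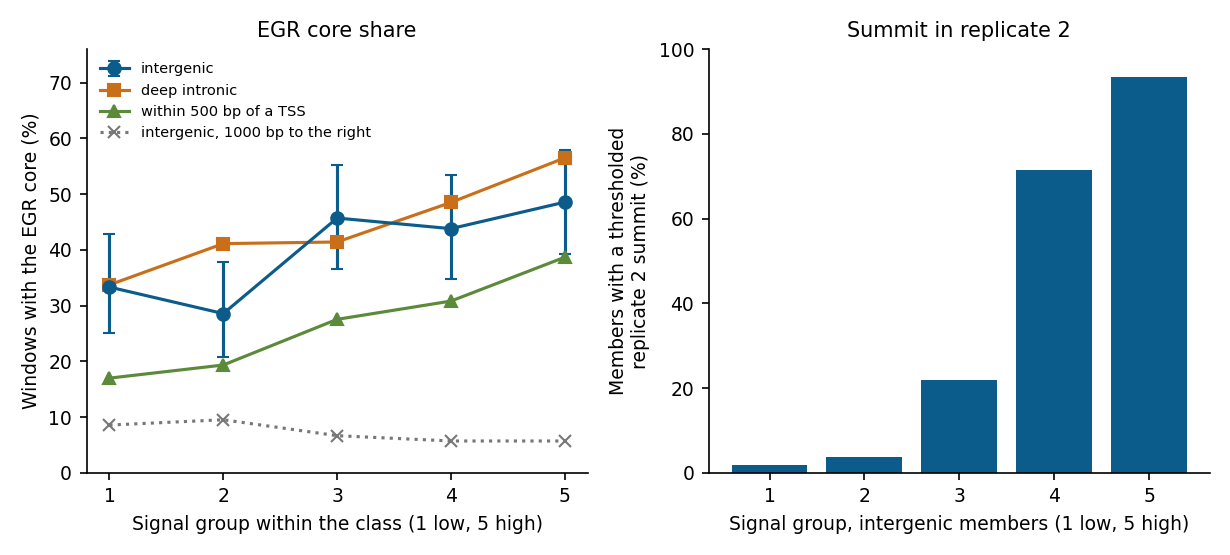
Left, share of windows with the EGR core (percent) by joint signal in 5 equal groups within each class, with Wilson 95% intervals for intergenic members and their flanks as a dotted line; the intergenic share is 33.3% in the lowest group and 48.6% in the highest. Right, share of intergenic members with a thresholded replicate 2 summit within 100 bp (percent) in the same groups, 1.90% in the lowest and 93.3% in the highest.

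Of the other 13 motifs searched on both strands, 2 differed between member summits and flanks. The GAGA factor sequence GAGAG, read by a protein that opens chromatin, was in 178 members (33.9%) and 113 flanks (21.5%), a difference with an adjusted p of 6.99e-05 in the exact sign test. It was in 20.8% of tiles, in 32.5% of deep intronic peaks and in 38.9% of peaks at TSSs. Among members it was in 34.9% of those without the EGR core and in 32.4% of those with it. The GATA sequence (NGATAN, with A or T as the first letter and A or G as the last), read by zinc finger factors of that name, was less frequent at summits, in 22.7% against 30.3% beside them (adjusted p = 0.0378 in the exact sign test). Flanks were not matched for GC content, with a median of 47.3% at summits and 41.3% in flanks. The bearing of this on the GAGA and GATA differences was not tested. The DRE, a core promoter element (TATCGATA), was in 1 member (0.19%) and 2 flanks, while 4.46% of peaks at TSSs held it.

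The remaining motifs did not pass. The E-box CANNTG, the site of bHLH factors, was in 68.4% of members and 61.1% of flanks, and the homeodomain site TAATTA in 8.00% and 12.6% (exact sign tests, adjusted p = 0.0551 for both). The sequences of Mef2, the muscle differentiation factor, Scalloped (GGAATG), ETS factors (NGGAAN, with A or C as the first letter and A or G as the last) and Pleiohomeotic (GCCAT and 3 partly free letters) were in 4.57%, 8.38%, 29.5% and 7.43% of members and in 7.24%, 8.95%, 33.3% and 8.57% of flanks. Those of Zelda (CAGGTAA or CAGGTAG), AP-1 (TGACTCA or TGAGTCA), Grainy head (AACCGGTT) and the T-box (AGGTGTGA) were in 10, 7, 4 and 0 members and in 12, 7, 1 and 4 flanks. These counts are too small to show differences of a few members.

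No motif was assumed in the test of all 8192 7-mers, of which 47 were more frequent at member summits (0.574%) and 5 in flanks (0.061%) at an adjusted p under 0.05 (exact sign tests). Of the 47, 16 contained CCCAC or its complement GTGGG. The leading one, CGCCCAC, the complement of GTGGGCG, was at 130 summits and 20 flanks (adjusted p = 4.38e-18, exact sign test), and CACCCAC, the complement of GTGGGTG, was at 104 and 23 (adjusted p = 1.04e-11, exact sign test). CCCACAC was at 88 summits and 12 flanks and CCCACGC at 79 and 10. The leading ones with neither CCCAC nor GTGGG were CCACACA (74 summits, 15 flanks), CCGCCCA (63 and 12) and CCACCCA (73 and 24). Of these, CCGCCCA and CCACCCA overlap the core's complement, shifted by a letter. Lower in the order were, among others, CCCCCGC (45 summits, 11 flanks), GCGCCAC (44 and 13), CTCTCGC (36 and 9) and AGAGAGC (38 and 13), which contains the GAGA sequence. More frequent in flanks were the AT-rich TTAATAA (16 summits, 57 flanks) and AATTTTA (28 and 70). Here too flanks were not matched for GC content, and the bearing of this on the called 7-mers was not tested. With flanks to the left, 44 were called at summits, 30 of them also called with the right flank.

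The 315 members without the core showed no called 7-mer in the same exact sign test (347 had an unadjusted p under 0.05). The smallest adjusted p was 0.0505, for CCCACAC, which shares CCCAC with the core. The sequence of CTCF, an insulator protein, was then counted as AGGTGGCGC or AGATGGCGC, a choice made after the 7-mers of these members were seen, so no test is given. It was in 11 members (2.10%), in 2 flanks and in 0.225% of tiles, and 9 of the 11 lacked the EGR core. Of deep intronic peaks 0.888% held it and of peaks at TSSs 0.983%. The strongest was the jp member printed above, where it lay 8 bp from the summit. The next were beside CG14762 (joint signal 302, library signals 90.0, 109 and 109), Boot (290, with 101, 71.2 and 124) and CrebB, the gene of a CREB factor (213, with 57.6, 73.8 and 96.7).

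Members lay a median of 3444 bp from the nearest protein-coding TSS, with quartiles of 1417 and 8862 bp and a range of 506 to 39868 bp. Just inside the limit of 500 bp, the 23 members at 501 to 600 bp held the core in 10 cases and had a median joint signal of 121. Just outside it, 19 peaks beyond gene bodies at 401 to 500 bp held it in 6 cases, with a median of 158. A further 36 members (6.86%) were within 500 bp of the TSS of a gene that does not code for protein, and 1 lay in an annotated transposable element.

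Members were densest just upstream of genes. The 37.3 Mb where a member could lie held 14.1 members per Mb (95% exact Poisson interval 12.9 to 15.3). At 501 to 1000 bp 5′ of the gene of the nearest TSS there were 51.3 per Mb (94 members, interval 41.5 to 62.8), against 11.8 per Mb on the 3′ side (3 members, interval 2.43 to 34.4). At 1001 to 2000 bp the densities were 28.7 per Mb 5′ and 16.6 per Mb 3′, and at 2001 to 5000 bp 18.8 and 14.4 per Mb. At 5001 to 10000 bp they were 12.8 per Mb 5′ and 15.2 per Mb 3′, with overlapping intervals. Beyond 10000 bp the order was the other way round, with 4.74 per Mb 5′ (42 members, interval 3.42 to 6.41) and 8.55 per Mb 3′ (70 members, interval 6.67 to 10.8). In all, 349 members (66.5%, 95% Wilson interval 62.3 to 70.4) lay 5′ of the gene of the nearest TSS, as did 59.0% of the sequence where a member could lie. These intervals cover counting error only and treat members as independent, although some share a stretch.

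**Figure D5:**
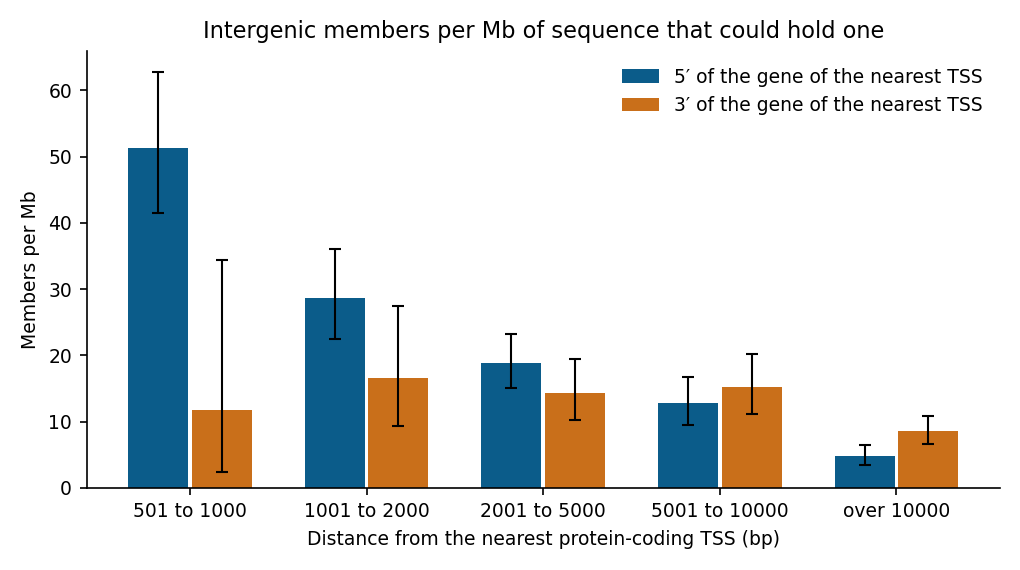
Intergenic members per Mb of sequence that could hold one (vertical axis) by distance from the nearest protein-coding TSS in bp (horizontal axis), 5′ and 3′ of that TSS's gene, with exact Poisson 95% intervals. Density is 51.3 per Mb at 501 to 1000 bp on the 5′ side and 4.74 per Mb beyond 10000 bp on the same side.

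Stretches between genes transcribed away from each other held more members per Mb than other stretches. A stretch is sequence free of any annotated gene, non-coding genes included, and is named and oriented by the nearest protein-coding gene on each side. Divergent neighbours had 23.0 members per Mb (200 members, interval 19.9 to 26.4), against 12.6 for convergent neighbours (103, interval 10.3 to 15.3) and 11.99 for neighbours on the same strand (222, interval 10.5 to 13.7). The share with the core was 41.0%, 36.9% and 40.5% in these 3 kinds. Density also moved with the length of the stretch, at 39.0 per Mb up to 5000 bp, 18.3 at 5001 to 10000 bp, 15.2 at 10001 to 20000 bp and 5.91 above that, and its part in the difference between orientations was not tested. By arm, there were 15.9 members per Mb on 2L, 12.6 on 2R, 15.4 on 3L, 15.95 on 3R and 9.59 on X. The list had no peak on chromosome 4.

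Some stretches held several members. Of 7214 stretches that could hold one, 371 did, and 94 of these held 2 or more, 248 members in all. The most, 11, lay in a stretch of 75047 bp between NijA, the ninjurin A gene, and CG43245 on 3L (10696878 to 10771924). Their joint signals ran from 62.9 to 353, 4 held the core, and 3 had a thresholded summit in all libraries. The strongest of them, 31679 bp from the TSS of CG43245, had 1 core and library signals of 103, 113 and 120. This stretch also held 3 of the 5 members farthest from any protein-coding TSS, at 35347, 34472 and 37228 bp. The other 2 farthest members lay 39868 bp from the TSS of vvl, a POU factor gene, and 38160 bp from that of salr, a zinc finger gene, with joint signals of 59.8 and 73.3.

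Another 5 stretches held 5 members each. Of these the shortest 2 are described, the others lying between CG33299 and Pka-C1, CG44362 and CG7560, and plh and corto. A stretch of 3265 bp between pit and how on 3R held 5 members, with joint signals from 47.3 to 314, and a stretch of 4094 bp between RFeSP and chinmo, a BTB zinc finger gene, on 2L held 5, with joint signals from 33.4 to 299. In each, 3 of the 5 had the core. The strongest and the weakest of the how members were separate summits entered for the same deposited region, so the 5 are not all separate regions. A stretch of 32964 bp between hng3 and CG13898 on 3L held 6 members, where none had a replicate 2 summit past the threshold, and a stretch of 36783 bp between Su(z)2, a Polycomb group gene, and CG13323 on 2R also held 6. Summits can lie close together, since 5 pairs of neighbouring members were within 200 bp and 4 regions of the list were entered more than once with other summits.

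Of the 10 genes in the tendon list used, 7 were the nearest protein-coding gene on one side of a member, against 4.52% of all 13945 protein-coding genes. Distances upstream were taken from the gene's TSS. The gene lists were chosen with earlier results of these data known, and genes with long flanking sequence can hold more members, so the counts carry no test. The member 1155 bp upstream of sr, with 3 cores, had signals of 190, 136 and 128 in replicates 1, 2 and 3, and no other member lay within 20000 bp of sr. Upstream of how, which encodes an RNA-binding protein of tendon and muscle, all 5 members of the stretch described above lay between 696 and 2873 bp from its TSS. The strongest of them had 1 core and library signals of 147, 58.3 and 90.3. The next 2 had 2 cores each, with library signals of 77.7, 38.8 and 76.1 and of 61.5, 66.1 and 76.4.

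Upstream of tx, a bHLH gene also known as taxi or delilah that is expressed in tendon cells, 3 members lay at 2472, 4577 and 8615 bp, and each held the core. The member at 8615 bp lay nearer to the TSS of CG34291, at 6382 bp. The member at 4577 bp was the strongest, with library signals of 102, 65.5 and 87.4. Upstream of slow, whose secreted product acts at the muscle attachment site, the member at 1654 bp had 1 core and library signals of 139, 87.5 and 150, and that at 645 bp had 2 cores and library signals of 39.7, 52.7 and 54.96. Both were thresholded in all 3 libraries, and the member at 1654 bp lay nearer to the TSS of CG32240, at 1159 bp. The member 1362 bp upstream of Tsp, the thrombospondin gene, held no core and had library signals of 44.2, 43.7 and 36.9. The members beside betaTub60D, a tubulin gene, lay 6436 and 11534 bp past its end, with mean library signals of 55.8 ± 10.5 and 29.8 ± 14.3 (SD, n = 3). The farther of them lay nearer to the TSS of slbo, at 9469 bp. The member beside vn, which encodes a ligand of the EGF receptor, lay 24147 bp upstream of it and 1690 bp from the TSS of CG5568. This member held no core and had a thresholded summit in 1 library. No member neighboured shot, betaTub56D or Lrt.

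Of 16 integrin adhesion genes, 5 neighboured a member (31.25%, against 4.52% of all protein-coding genes). The member 196 bp past the end of Ilk, the integrin-linked kinase gene, had 1 core and a mean library signal of 83.2 ± 22.5 (SD, n = 3). The member 2469 bp upstream of stck, the PINCH gene, had 1 core and 71.9 ± 3.84, and that 120 bp past the end of Zasp52, a gene of a PDZ and LIM domain protein, had 1 core and 69.0 ± 34.2. The strongest of 5 beside by, the tensin gene, lay 1741 bp upstream with 1 core and 63.6 ± 17.7, and the member 1712 bp past the end of Pax, the paxillin gene, had 1 core and 44.6 ± 3.84 (SD, n = 3 each). Each of these 5 members, the strongest beside its gene, held the core and was thresholded in all 3 libraries. The Ilk member lay nearer to the TSS of CG43219, at 964 bp, and the Pax member to that of CG17544, at 548 bp. The other stck member, 1216 bp upstream, held no core. Of the other by members, those 513 bp upstream and 679 bp past the end held 1 core each. Those 1317 bp upstream and 467 bp past the end held none. None of these other members was thresholded in all 3 libraries.

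Of 16 EGFR pathway genes, 3 neighboured a member (18.75%, against 4.52% of all protein-coding genes). Beside aop, an ETS repressor gene, members at 672 and 1417 bp upstream held 1 core each, with mean library signals of 78.0 ± 29.9 and 70.2 ± 29.8 (SD, n = 3). A further aop member, 1618 bp upstream, held no core, had a joint signal of 27.8 and was thresholded in no library. Beside sty, which encodes the inhibitor Sprouty, 6 members lay downstream, between 22851 and 37555 bp from its TSS, and all were nearer to the TSS of Ids than to that of sty. The strongest was the Ids member named above, which had no core. The third gene was vn.

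Of 13 segment border genes, 7 neighboured a member (53.8%, against 4.52% of all protein-coding genes). The strongest lay between the forkhead genes slp1 and slp2, 6663 bp and 4502 bp from their TSSs, and is therefore counted for both. It had 2 cores and library signals of 130, 131 and 111. Beside ptc, the Hedgehog receptor gene, 3 members 1774 to 13397 bp upstream held no core, and the strongest had a mean library signal of 46.5 ± 30.9 (SD, n = 3). The member at 13397 bp lay nearer to the TSS of CG8635, at 4290 bp. Those beside odd, wg and the pair en and inv had joint signals of at most 114, 75.2 and 80.5.

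Of 20 epidermal and tracheal regulator genes, 11 neighboured a member (55%, against 4.52% of all protein-coding genes). After the members beside tsh and elB described above, the strongest lay 1040 bp upstream of dve, a homeobox gene, with 3 cores and library signals of 52.3, 94.4 and 98.9. The next lay 8792 bp past the end of noc, a zinc finger gene paired with elB (no core, mean library signal 92.5 ± 29.4), and 25592 bp upstream of hth, a homeobox gene (1 core, 80.3 ± 27.4; SD, n = 3 each). The hth member lay nearer to the TSS of CG6465, at 12091 bp. In all 8 members neighboured noc, and 5 of the 8 held a core. The other genes were vvl, salm, salr, Dll, disco and ems.

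Of 18 somatic muscle identity genes, 4 neighboured a member, with the strongest between the Iroquois genes caup and mirr (2 cores, mean library signal 63.6 ± 14.8), then beside Poxm, a Pax gene (1 core, 56.1 ± 2.50), and slou, a homeobox gene (2 cores, 35.5 ± 15.4; SD, n = 3 each). Of 8 T-box genes, Doc1, Doc2, mid and H15 did, none with a thresholded summit in all 3 libraries. Of 8 homeotic genes, Antp and abd-A did, the strongest member lying 5482 bp upstream of Antp with no core and library signals of 66.9, 70.9 and 95.4. Of 12 extracellular matrix genes, only wb, which encodes a laminin subunit, did, with 1 member of low signal. None of the 15 ecdysone and nuclear receptor genes neighboured a member. The counts of every list stand beside the 4.52% of all protein-coding genes, a share that takes no account of flanking length. None of the counts is therefore a result about its list, and the last 2 lie near that share. Genes that lie next to each other share members, so the counts within a list are not independent.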

How the data were processed

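Stripe binding was measured by ChIP-seq in 3 libraries. The authors deposited, per the labels on dm6, ranked and thresholded peak lists per library and joint lists. The signal of each peak is a value the authors deposited with no stated normalization. The −log10 of the global irreproducible discovery rate, as deposited by the authors in the joint ranked list, was at least 2.000144 for every conservative peak. Aligner and peak caller: not given in the sources used here. Read totals are unknown, so precision rests on the number of peaks, and intervals cover counting error only.

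Here summits were assigned to classes with Ensembl release 115, and windows of 100 bp on each side were searched for 14 motifs and all 7-mers against windows 1000 bp to the right (exact sign tests, Benjamini-Hochberg adjustment). In simulated windows for the same number of members, the 7-mer test recovered all 3 planted 7-mers at an adjusted p under 0.05. That check gives recovery only and does not bear on how many called 7-mers are false. Shares of classes were compared by Fisher's exact test, and libraries by exact sign-flip permutation. A gene neighboured a member when it was the first protein-coding gene on either side. Summits within 100 bp were matched between lists. Genes were named by rule: the 15 strongest members, those within 20000 bp of sr, the 5 stretches with the most members (of 5 tied at 5 members, the shortest 2), the 5 members farthest from a protein-coding TSS, the 3 with the most cores, all tendon genes and up to 5 genes of each other list by signal; CTCF sites, single 7-mers and lists of other neighbouring genes were named after their values were seen. The members and lists were chosen with earlier results of these data known. The gene lists hold 3 symbols that the annotation does not use (tensin, col and svb), and no gene was counted under these symbols. The tensin gene was counted as by. Genes that the annotation names otherwise than col and svb were not looked up. The age entry of the labels lies far outside the stated range and was not used. Python 3.11.15, numpy 2.4.6, scipy 1.17.1, pandas 2.3.3 and matplotlib 3.10.9 were used.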

Additional observations from a re-analysis of the deposited data

How the results depend on the processing

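With 1 group, libraries could not be compared or paired between groups. The exact sign tests paired the summit and flank windows of each member. The excess of the core at intergenic summits over flanks, its higher share than at TSS peaks and the lack of a call against deep intronic peaks kept their direction and their side of the threshold under every alternative run. The 40% of members with the core became 33.3% with windows of 50 bp on each side, 46.3% in the stronger 50% of the list, 46.2% in peaks of other widths than 296 bp (chosen after seeing the data), and 46.4 to 48.9% among members with a thresholded summit in both libraries left when 1 replicate was left out. The share with a summit in all libraries, 30.7%, became 61.4% in the stronger 50% of the list and 33.9 to 45.9% when 1 replicate was left out, highest without replicate 2. The number of members was 259 in the stronger 50%. The share 5′ of the nearest gene was 59.6% with a TSS limit of 1000 bp. That limit drops the 97 members at 501 to 1000 bp, of which 94 lay 5′. It also changes the sequence that could hold a member, so 59.6% cannot be set against the 59.0% of sequence given above. The share of genes that neighboured a member was 2.60% when only the gene of the nearest TSS counted. The cause of the other shifts was not tested, apart from fewer members entering. Depth is unknown, and the weakest members were those that least often had a thresholded summit in the libraries.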
